A study of Rattus norvegicus with 40 samples.

Results

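Nodules that had formed in rat liver after 14 weeks of diethylnitrosamine (DEN) were compared with liver of untreated rats of the same week. The 12 libraries were chosen by their labels alone, from 40 in the whole series: 8 nodule libraries, from 2 nodules of each of 4 rats, and 4 libraries of rats that received no DEN (no DEN liver). The rats were males of the Fischer 344 strain with no engineered allele. DEN-treated rats were 7 weeks old at the first of weekly intraperitoneal injections of 50 mg/kg, given for 14 weeks, and were sampled at week 14, 0 weeks after the last injection. The treated rats are numbered F06, H21, H22 and H23 and the untreated rats H09 to H12, and values listed for 4 rats follow these orders. Non-tumoral liver of the same 4 treated rats (NT liver) and, for a single comparison, nodules and no DEN liver of week 20 (6 weeks after the last injection) are set beside them. The libraries are of bulk tissue, so stroma and vessels within a nodule are part of each.

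DEN is a carcinogen that cytochrome P450 enzymes of the hepatocyte turn into a DNA-ethylating agent. In rats, repeated doses give foci and then nodules of altered hepatocytes, known for strong expression of placental glutathione S-transferase (Gstp1) and gamma-glutamyltransferase (Ggt1), enzymes that adult rat liver makes in very small amounts. Adult male rat liver is also marked by enzymes and urinary proteins that depend on the pulsed release of growth hormone, and by a set of transcription factors, such as Hnf4a, that hold the hepatocyte program.

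Between 20528515 and 34629059 read pairs were counted on genes in the nodule libraries and between 29848227 and 35326660 in no DEN liver. Albumin (Alb), the main secreted product of the hepatocyte, took 11.7% to 16.8% of the nodule counts and 16.7% to 18.7% of those of no DEN liver, so both tissues carried the defining transcript of liver. The nodules of rat F06 stood apart in quality, nodule 1 the more. Nodule 1 had the fewest counted pairs of the 8 nodules. The share of pairs outside annotated exons was 34.5% in nodule 1 and 28.2% in nodule 2 of F06, against 22.95% to 25.5% in the 6 nodules of the other rats. Nodules 1 and 2 of that rat differed 2-fold or more in 2.18% of 11316 genes on log2(CPM + 1), against 0.274% to 0.893% in the other rats. Rat F06 is also the only rat with the letter F among these 12 libraries, so letter and rat cannot be told apart. Where the call of a named gene against no DEN liver changed without this rat, the value without it is also given. Values per rat come from the comparison of nodules and no DEN liver. Values of single libraries, NT liver and summed marker levels were scaled over all 16 libraries of the week and run somewhat higher, for instance 216710.0 CPM against 203462 CPM for Alb in rat H09.

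The promoters below belong to genes of groups that rose together in the nodules, and are shown because these groups carry the largest changes. They are the 250 bases before the annotated start, from RefSeq on the GRCr8 build, whereas the counts were made on rn6. Capitals mark matches on either strand. In the first pair, both from genes of mitosis and the G2 phase, they mark the letters TTTGAA of the cell-cycle homology region (CHR). In the second pair they mark TGACNNNGC, the core of the antioxidant response element (ARE) to which NRF2 binds.
Cdk1, chr20:19265043-19265292, + strand: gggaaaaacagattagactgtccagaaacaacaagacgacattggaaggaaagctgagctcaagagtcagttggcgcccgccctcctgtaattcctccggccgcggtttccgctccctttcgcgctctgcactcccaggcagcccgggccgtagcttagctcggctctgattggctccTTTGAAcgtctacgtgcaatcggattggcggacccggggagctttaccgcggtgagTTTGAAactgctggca
Ccnb2, chr8:79981659-79981908, - strand: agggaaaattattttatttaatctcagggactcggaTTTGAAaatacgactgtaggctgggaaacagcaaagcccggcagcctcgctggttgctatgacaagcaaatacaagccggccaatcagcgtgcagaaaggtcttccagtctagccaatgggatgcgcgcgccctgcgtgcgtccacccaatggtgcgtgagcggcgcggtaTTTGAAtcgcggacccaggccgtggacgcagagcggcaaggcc
Gstp1, chr1:210769706-210769955, - strand: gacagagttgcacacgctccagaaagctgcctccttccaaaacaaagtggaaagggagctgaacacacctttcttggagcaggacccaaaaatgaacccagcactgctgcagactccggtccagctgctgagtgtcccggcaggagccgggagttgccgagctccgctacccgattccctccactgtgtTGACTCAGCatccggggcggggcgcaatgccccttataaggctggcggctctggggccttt
Gpx2, chr6:101230034-101230283, - strand: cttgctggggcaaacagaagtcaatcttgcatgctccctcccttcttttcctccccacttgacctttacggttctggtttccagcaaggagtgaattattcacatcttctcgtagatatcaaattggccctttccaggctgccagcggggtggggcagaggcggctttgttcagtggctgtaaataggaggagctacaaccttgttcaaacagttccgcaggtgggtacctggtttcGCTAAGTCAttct

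The match in Gstp1 began 61 bases before the start, and the nearest matches in Cdk1 and Ccnb2 began 16 and 43 bases before it. Of the 8616 tested genes with a promoter in the table, 10.4% held TTTGAA, 35.8% held CCAAT and 12.7% held TGACNNNGC in this window, counting both strands. Among the 17 mitotic genes with a promoter, 8 held TTTGAA and 14 held CCAAT, the letters bound by NF-Y. Among 13 NRF2 targets 3 held the ARE core, and among 10 focus enzymes 2 did. A match is a description of letters in this window and not a measured site.

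In all, 4425 of 11316 genes tested (39.1%) differed between nodules and no DEN liver (absolute log2 fold change of 0.5 or more with an adjusted p not above 0.05; edgeR quasi-likelihood test, counts of the nodules of a rat summed, 4 rats per group, Benjamini-Hochberg adjustment). These genes are called higher (23.9%) or lower (15.2%) in what follows, and counts of a gene group are to be read against these shares. In 26.8% of the genes every nodule value lay above every no DEN value, and in 51.8% the groups did not overlap in either direction. The median log2 fold change of all genes was 0.0017 with TMM scaling, which sets library sizes by genes of moderate change. Scaling by total counts alone moved it to 0.57, and then 5921 genes were called higher and 422 lower, in place of 2706 and 1719. Falls smaller than this shift therefore depend on the scaling. Larger falls can lose their call as well, since a call needs a size of 0.5. Alb, for instance, had a log2 fold change of -0.88 with TMM scaling and -0.32, not called, with total counts. The counts under total counts are given beside most groups with genes that fell. In bulk tissue, fewer cells of a type and less RNA per cell cannot be told apart.

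**Figure D1:**
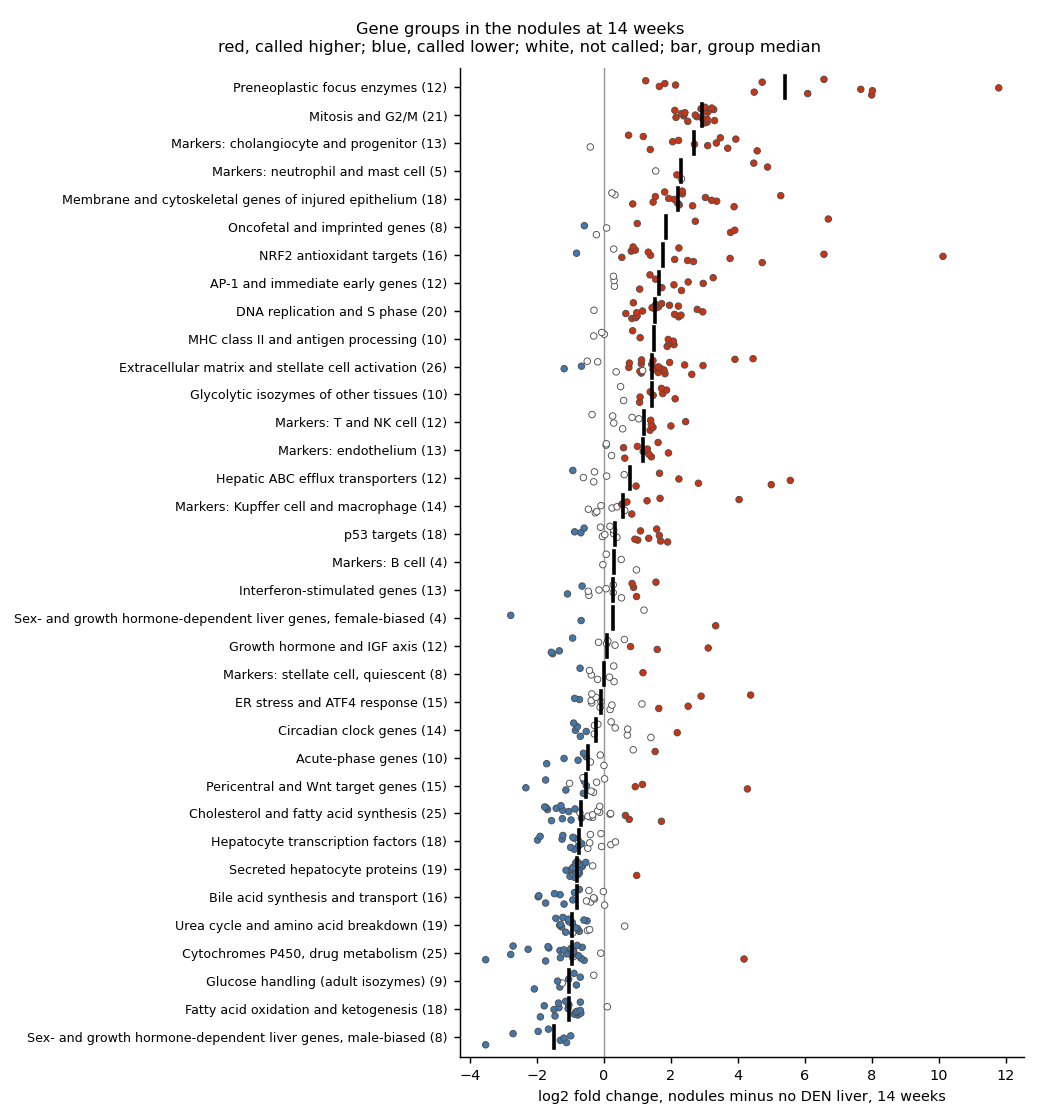
Log2 fold change of every tested gene of 35 gene groups, nodules minus no DEN liver at 14 weeks. Each point is a gene (red, called higher; blue, called lower; white, not called), the bar is the median of the group, and the number of genes tested is in brackets. Focus enzymes (median 5.41) and mitotic genes (median 2.94) lie at the top, and male-biased liver genes (median -1.48) and fatty acid oxidation genes (median -1.05) at the bottom.

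Enzymes that mark preneoplastic foci of rat liver were all higher in the nodules (12 of 12, median log2 fold change 5.41 against 0.0017 for all genes). Gstp1, which conjugates electrophiles to glutathione, measured 1694, 2414, 3187 and 2116 CPM (counts relative to library size) in the nodules of the 4 rats and 7.77, 8.83, 10.7 and 9.46 CPM in no DEN liver (log2 fold change 8.0, SE 0.26, edgeR adjusted p = 8.34e-07). Every nodule value lay far above every untreated value. The 8 nodule libraries ran from 1320.0 to 3804 CPM with a median of 2616, the lowest being nodule 2 of rat F06. Ggt1, which breaks down extracellular glutathione, rose from 0.398 ± 0.144 to 27.6 ± 9.29 CPM (mean ± SD, n = 4 each; log2 fold change 6.09, SE 0.37, edgeR adjusted p = 7.83e-06). Akr7a3, an aldehyde reductase able to act on aflatoxin dialdehyde, rose from 56.5 ± 9.34 to 1269 ± 527 CPM (log2 fold change 4.49, SE 0.35, edgeR adjusted p = 2.07e-05). In all 3 genes rat F06 gave the lowest nodule value.

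The aldo-keto reductases Akr1b8 and Akr1b10 are near-identical copies, so that pairs matching both were dropped and their separate levels are uncertain. Akr1b8 measured 124, 352, 556 and 411 CPM in the nodules and 1.203, 1.15, 1.46 and 1.70 CPM in no DEN liver (log2 fold change 8.02, SE 0.52, edgeR adjusted p = 9.23e-06). Akr1b10 was low, at 1.16, 4.29, 4.37 and 7.25 CPM in the nodules against 2 counts in all 4 no DEN libraries together, a ratio of 232-fold (95% counting interval 64.1 to 1913). Aldh3a1, an aldehyde dehydrogenase that oxidises lipid aldehydes, measured 28.003, 95.04, 139 and 167 CPM in the nodules and had 3 counts in all of no DEN liver, a ratio of 3879-fold (95% counting interval 1327 to 18809.5). Gpx2, a glutathione peroxidase of epithelia, measured 39.7, 83.04, 109.9 and 89.2 CPM against 0.729, 1.19, 0.692 and 0.783 CPM (log2 fold change 6.57, SE 0.37, edgeR adjusted p = 5.72e-06). Every nodule value of Akr1b8, Akr1b10 and Gpx2 lay above every value of no DEN liver.

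Of 16 targets of NRF2, the transcription factor of the antioxidant response, 14 were higher, 1 was lower and 1 was not called (median 1.75). Gpx2 and Nqo1 belong to this list and to the focus enzymes. Nqo1, a quinone reductase, measured 52.7, 178, 286 and 208 CPM in the nodules and 11.9, 5.34, 5.32 and 4.73 CPM in no DEN liver (log2 fold change 4.73, SE 0.55, edgeR adjusted p = 0.000156). Slc7a11, the cystine importer that feeds glutathione synthesis, measured 29.8, 97.4, 129 and 126 CPM in the nodules, while no DEN liver held at most 6 counts per library (0.0365, 0.0411, 0.219 and 0.0340 CPM; log2 fold change 10.13, SE 0.72, edgeR adjusted p = 1.48e-05). Rat F06 again had the lowest nodule value in both genes, and each of its values still lay above all of no DEN liver. Srxn1 (sulfiredoxin) rose by 3.77 and Gclc, the catalytic subunit of glutamate-cysteine ligase, by 2.68 on the log2 scale. Me1, the cytosolic malic enzyme, was lower (log2 fold change -0.82, edgeR adjusted p = 0.00606), and Osgin1 was not called. With total counts 0 members were lower.

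The plot of single libraries shows the same genes beside NT liver of the same rats. Gstp1 ran from 541 to 2124 CPM and Nqo1 from 38.8 to 183 CPM in NT liver, so NT liver stood far above no DEN liver as well, with rat F06 lowest.

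**Figure D2:**
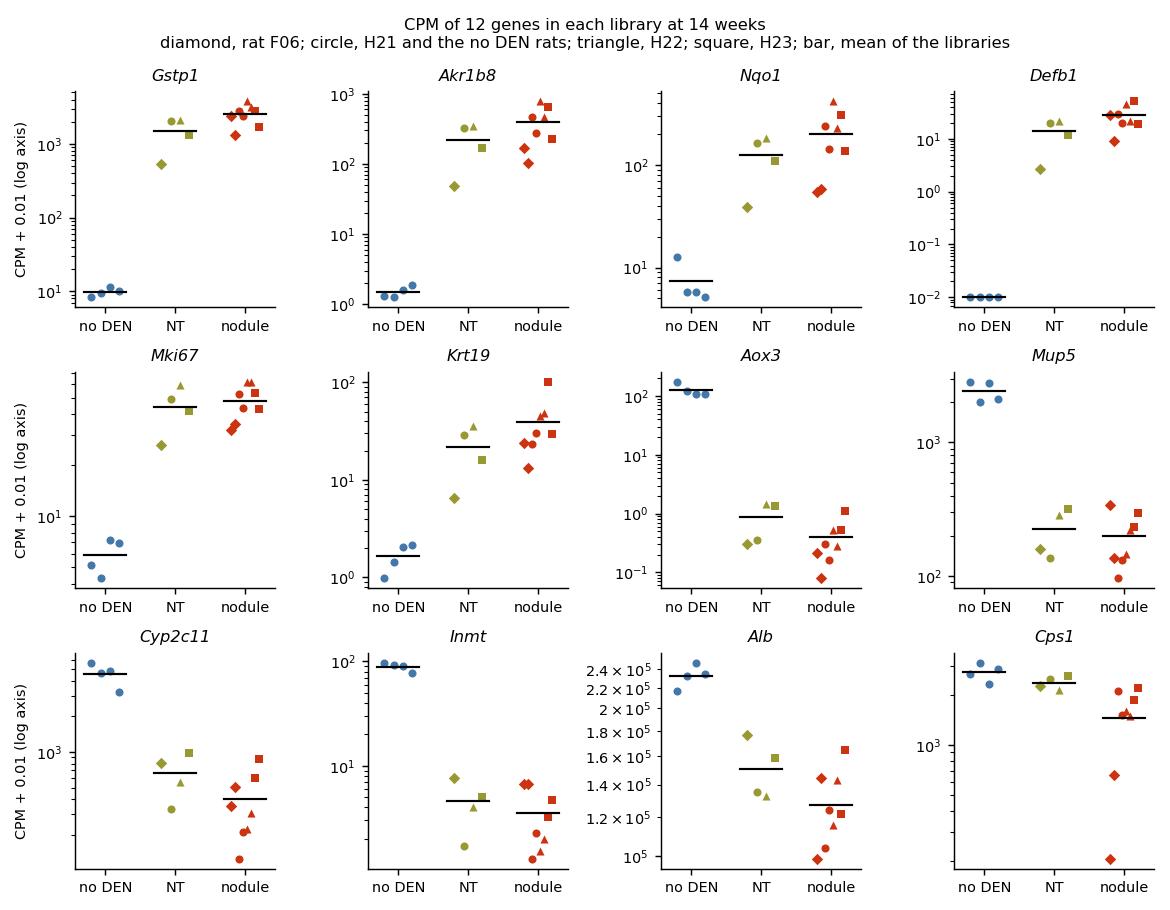
CPM + 0.01 on a log axis for 12 genes in the 4 no DEN, 4 NT and 8 nodule libraries of week 14, with 1 point per library and a bar at the mean. Gstp1, Akr1b8, Nqo1, Defb1, Mki67 and Krt19 separate nodules from no DEN liver upwards, and Aox3, Mup5, Cyp2c11, Inmt and Alb downwards. For Cps1 the nodules of rat F06 (diamonds, 205 and 660.3 CPM) lie below all others.

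Genes of cell division rose as a group. All 21 tested genes of mitosis and the G2 phase were called higher (median 2.94, range 2.12 to 3.31), and in all of them the groups did not overlap. Mki67, the gene of the Ki-67 antigen of cycling cells, measured 31.3, 44.4, 56.6 and 44.1 CPM in the nodules and 4.81, 3.98, 6.70 and 6.40 CPM in no DEN liver (log2 fold change 3.01, SE 0.22, edgeR adjusted p = 1.78e-05). Cdk1, the kinase that starts mitosis, measured 13.5, 20.7, 30.8 and 22.2 CPM against 2.22, 2.30, 3.06 and 2.69 CPM (log2 fold change 3.08, SE 0.25, edgeR adjusted p = 2.8e-05). Cenpf of the kinetochore, Prc1 of the spindle midzone and the kinesin Kif20a rose by 3.28, 3.22 and 3.11 on the log2 scale. Of 20 genes of DNA replication and the S phase 19 were higher and 1 was not called (median 1.53). Rrm2, a subunit of ribonucleotide reductase, rose by 2.95 and the origin licensing factor Cdc6 by 2.79. Pcna, the sliding clamp of the replication fork, moved less, from 17.95 ± 0.976 to 32.1 ± 5.97 CPM (log2 fold change 0.84, SE 0.14, edgeR adjusted p = 0.000982), and Mcm2, a subunit of the replicative helicase, from 6.27 ± 0.673 to 12.1 ± 2.25 CPM (log2 fold change 0.95, SE 0.16, edgeR adjusted p = 0.00109). In absolute level the group stayed low. Summed over the mitotic genes it took 46.9 to 67.1 CPM in no DEN liver, 194 to 473 in NT liver and 202 to 523 in the nodules.

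Of the 12 genes with the largest rises, 8 had no count in any library of untreated liver. Defb1, a beta-defensin of epithelia, measured 16.3, 23.4, 29.9 and 33.1 CPM in the nodules and 0 counts in each of the 4 no DEN libraries. Against 3 counts per library, the limit that a count of 0 allows, it was at least 231-fold higher. Slc16a5, of the monocarboxylate transporter family, was at 0 in no DEN liver and at 26.8, 12.7, 24.1 and 20.6 CPM in the nodules (at least 189.6-fold higher). The same held for 6 further genes at 0 in no DEN liver. They were the urate transporter gene Slc22a12 (at least 41.2-fold), Slc10a4 (at least 48.1-fold), the sodium-glucose cotransporter gene Slc5a9 (at least 22.01-fold), Btnl2 of the butyrophilin family (at least 22.9-fold) and the class I genes RT1-M5 (at least 54.3-fold) and RT1-M4 (at least 27.1-fold). The RT1 genes belong to a multigene family, so their counts are uncertain. Intervals and limits of this kind cover counting error only, since the libraries carried no molecular identifiers.

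Nefl, the light chain of neurofilaments, measured 10.6, 48.7, 112 and 32.3 CPM in the nodules and had 1 count in all of no DEN liver, a ratio of 5530.4-fold (95% counting interval 993 to 218439). Dnaaf1, which takes part in the assembly of axonemal dynein of cilia, measured 13.98, 56.5, 90.7 and 43.04 CPM and had 2 counts in all of no DEN liver, a ratio of 2772-fold (95% counting interval 767 to 22891). In both genes the nodule values varied several-fold between rats, with rat F06 lowest and H22 highest. NT liver of the same rats held 2.63 to 21.8 CPM of Defb1, 1.15 to 14.98 of Slc16a5, 2.37 to 43.8 of Nefl and 2.30 to 39.6 of Dnaaf1 (lowest to highest rat), so these 4 transcripts were also present outside the nodules.

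The largest fall was that of Aox3, an aldehyde oxidase of liver. It measured 162, 114, 101 and 101 CPM in no DEN liver and 0.123, 0.212, 0.349 and 0.709 CPM in the nodules (log2 fold change -8.37, SE 0.44, edgeR adjusted p = 4.15e-06). No nodule library exceeded 1.08 CPM. Inmt, which methylates tryptamine and other indoles, fell from 83.02 ± 8.44 to 3.26 ± 2.19 CPM (log2 fold change -4.68, SE 0.44, edgeR adjusted p = 5.48e-05). Stac3, known as an adaptor of muscle calcium channels, fell from 297 ± 59.2 to 11.6 ± 7.68 CPM (log2 fold change -4.68, SE 0.45, edgeR adjusted p = 6.17e-05). The tyrosine kinase gene Ptk6, the teneurin gene Tenm2, Lppr1 and Gimd1 were also among the 12 largest falls, with log2 fold changes of -3.78, -4.25, -3.80 and -4.22.

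The others of the 12, chosen like the rest among called genes that averaged 1 CPM or more and whose groups were apart, were Obp3, LOC100360095, LOC259244, LOC298116 and Mup5. Mup5, a major urinary protein of male rats, measured 2668, 1849.8, 2601 and 1951 CPM in no DEN liver and 212, 104, 171 and 239 CPM in the nodules (log2 fold change -3.64, SE 0.27, edgeR adjusted p = 1.84e-05). Obp3, of the same lipocalin family, fell from 340.1 ± 85.9 to 10.6 ± 3.25 CPM (log2 fold change -5.002, SE 0.30, edgeR adjusted p = 7.03e-06). LOC259244 (log2 fold change -3.81) and LOC298116 (-3.72) had no name in the gene table used here, and LOC100360095, listed there also as Rup-4, fell by 4.42 on the log2 scale. Urinary lipocalin genes share near-identical copies, and since pairs matching several places had been dropped, the level of each is uncertain.

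The male-biased genes of liver that depend on growth hormone were lower in all 8 tested (median -1.48; 7 with total counts). Cyp2c11, the main male cytochrome P450 of rat liver, measured 5331, 4278, 4449.9 and 3001 CPM in no DEN liver and 402, 153, 249 and 671 CPM in the nodules (log2 fold change -3.53, SE 0.44, edgeR adjusted p = 0.000224). Cyp4a2, a fatty acid hydroxylase, Slco1a1, an uptake transporter, and Hsd3b5 had log2 fold changes of -2.71, -1.96 and -1.66. The female-biased genes did not move in 1 direction. Cyp2c12, a P450 of female liver, measured 62.2, 208, 169.9 and 208 CPM in the nodules against 8.86, 22.6, 18.8 and 13.9 CPM (log2 fold change 3.34, SE 0.42, edgeR adjusted p = 0.000246), while Cyp2c7 fell by 2.78 and Cyp2a1 by 0.68, and Prlr, the prolactin receptor, was not called (called without H12, log2 fold change 2.04, edgeR adjusted p = 0.00442). The fall of Cyp2a1 was not called with total counts. The Cyp2c genes are close copies of each other and their counts are uncertain. Of 12 genes of the hormone axis itself 4 were lower (3 with total counts) and 3 were higher. Ghr, the growth hormone receptor, measured 169.9, 225, 221 and 265 CPM against 674, 650.4, 674 and 619 CPM (log2 fold change -1.57, SE 0.13, edgeR adjusted p = 3.13e-05). Igf1, its circulating effector, fell from 675 ± 35.3 to 234 ± 24.6 CPM (log2 fold change -1.53, SE 0.10, edgeR adjusted p = 9.65e-06) and Igfals, which stabilises it in blood, by 1.33 on the log2 scale. Igfbp2, a binding protein of IGF, rose by 3.12. Igfbp1 was called higher (log2 fold change 1.59, edgeR adjusted p = 0.049), but the call was lost without F06, H22, H10, H11 or H12 (edgeR adjusted p from 0.0608 to 0.182; log2 fold change 0.84 without F06).

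Enzymes and products of the mature hepatocyte fell broadly. Several groups share members, so their counts are not separate results. Cyp2c11, Cyp2c13, Cyp2a2, Cyp3a2, Cyp3a18, Cyp4a2, Cyp2a1 and Cyp2c7 are in the sex-biased lists and in that of cytochromes P450. Cyp1a2 and Cyp2e1 are in the latter and in the pericentral list. Of 25 drug-metabolising cytochromes P450, 21 were lower, 1 was higher and 3 were not called (median -0.95; 11 lower with total counts). The exception was Cyp1a1, which oxidises polycyclic aromatic compounds and rose from 0.570 ± 0.0430 to 10.4 ± 5.93 CPM (log2 fold change 4.19, SE 0.44, edgeR adjusted p = 8.72e-05), whereas Cyp1a2 of the same family fell by 1.74. Cyp2e1, known to activate DEN, measured 2021, 1214, 1081 and 1219 CPM in the nodules and 2302, 1873, 1844 and 2306 CPM in no DEN liver. Its values overlapped between the groups (log2 fold change -0.59, SE 0.20, edgeR adjusted p = 0.0347; -0.03 and not called with total counts), and the call was lost without any 1 of H21, H22, H23, H09, H10 or H12 (edgeR adjusted p from 0.0507 to 0.0896). Of 19 secreted proteins 17 were lower, a count that dropped to 1 with total counts. Their median was -0.80 with TMM scaling, and the shift between the scalings was 0.57. Alb measured 114587, 104412, 120171 and 129750.0 CPM in the nodules and 203462, 214922, 228818 and 217225 CPM in no DEN liver (log2 fold change -0.88, SE 0.10, edgeR adjusted p = 0.000165; -0.32 and not called with total counts). The clotting factor gene F9 fell by 1.13 and Ttr, which carries thyroid hormone, by 1.01 (-0.45 and not called with total counts). Apoa1, the main protein of high-density lipoprotein, was the 1 member that rose, from 2198 ± 367 to 4336 ± 581 CPM (log2 fold change 0.98, SE 0.15, edgeR adjusted p = 0.000759).

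Of 18 hepatocyte transcription factors 10 were lower and 8 were not called (median -0.75; with total counts 2 were lower and 2 higher). Hnf4a, which binds the promoters of many hepatocyte genes, measured 345, 387, 335 and 346 CPM in the nodules and 626, 566, 684 and 729.9 CPM in no DEN liver (log2 fold change -0.88, SE 0.10, edgeR adjusted p = 0.000151; not called with total counts). Rxra, the shared partner of nuclear receptors, measured 6.84, 45.2, 27.2 and 49.1 CPM against 141, 129, 114 and 97.8 CPM (log2 fold change -1.90, SE 0.49, edgeR adjusted p = 0.0105), with both nodules of rat F06 at or below 9.80 CPM in the per-library values. Prox1, needed for hepatocyte outgrowth, fell by 1.25. Onecut1, a factor of liver development, measured 0.842, 2.17, 1.33 and 0.972 CPM against 1.93, 13.97, 2.04 and 3.27 CPM (log2 fold change -1.98, SE 0.66, edgeR adjusted p = 0.0332). The untreated mean rests on H10, and without H10 the log2 fold change was -0.87 (edgeR adjusted p = 0.0942). The call was also lost without F06, H22 or H23 (edgeR adjusted p of 0.122, 0.0761 and 0.0794) and with total counts. The estrogen receptor gene Esr1 (log2 fold change -1.23) lost its call without any 1 rat other than F06 and H23 (edgeR adjusted p up to 0.104) and with total counts.

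Genes of nitrogen handling fell in 15 of 19 cases (6 with total counts; median -0.94). Ass1, the argininosuccinate synthase of the urea cycle, measured 991, 1073, 899.8 and 1166 CPM against 2270.2, 2581, 1927 and 2339 CPM (log2 fold change -1.14, SE 0.12, edgeR adjusted p = 9.81e-05). Cps1, the first enzyme of that cycle, measured 419, 1683, 1421 and 1835 CPM in the nodules and 2510.4, 2887, 2157 and 2660.4 CPM in no DEN liver and was not called (log2 fold change -0.93, SE 0.38, edgeR adjusted p = 0.0652). Without rat F06 its log2 fold change was -0.60 and it was called (edgeR adjusted p = 0.00067), and without nodule 1 of that rat it was also called (edgeR adjusted p = 0.0297). Aass of lysine breakdown, Hal of histidine breakdown and Tat of tyrosine breakdown had log2 fold changes of -1.44, -1.32 and -1.29.

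Carbohydrate genes moved in opposite directions by isozyme. Of 9 genes of the adult liver's glucose handling 7 were lower and G6pc and Pfkl were not called (median -1.05; 2 lower with total counts). G6pc, which releases free glucose, had a log2 fold change of -1.24 in all rats. Without rat F06 it was -2.22 and called (edgeR adjusted p = 0.0116), which made 8 lower genes. Of 10 glycolytic genes typical of other tissues 8 were higher (median 1.43). Hk1, the hexokinase of most tissues other than liver, measured 12.1, 16.7, 20.1 and 18.1 CPM in the nodules and 3.14, 3.37, 4.81 and 3.98 CPM in no DEN liver (log2 fold change 2.13, SE 0.19, edgeR adjusted p = 4.83e-05). Pklr, the liver pyruvate kinase, fell by 1.32 while Pkm rose by 1.07, and Fbp1 of gluconeogenesis fell by 1.05 (not called with total counts). Hk2 was not called (log2 fold change 0.59, SE 0.28, edgeR adjusted p = 0.105), but was called without rat F06 (log2 fold change 0.78, edgeR adjusted p = 0.0115).

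Of 18 genes of fatty acid oxidation and ketogenesis 17 were lower and Acaa2 was not called (median -1.05; 7 lower and 1 higher with total counts). Cpt1a, which admits fatty acids to mitochondria, measured 137, 66.98, 68.96 and 69.4 CPM in the nodules and 275, 277, 405 and 318 CPM in no DEN liver (log2 fold change -1.90, SE 0.26, edgeR adjusted p = 0.000354). Acsl1, which activates fatty acids, had a log2 fold change of -1.78. Lipid synthesis genes split by branch. Of 25 genes 12 were lower (7 with total counts), among them Fasn (fatty acid synthase, -1.56), Acly (-1.72) and Scd1 (-1.77), and 3 were higher, among them Sqle and Idi1 of the sterol pathway, with log2 fold changes of 0.76 and 0.64. Of 16 bile acid genes 9 were lower (6 lower and 1 higher with total counts). They included the uptake transporter Slc10a1 (-1.19), Slco1b2 (-1.94) and Cyp8b1, which makes cholic acid (-1.74). Cyp7a1, the rate-limiting enzyme of bile acid synthesis, measured 102, 46.1, 34.6 and 57.1 CPM against 80.8, 45.4, 57.9 and 52.04 CPM and was not called (log2 fold change 0.02, SE 0.32, edgeR adjusted p = 0.962).

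Genes of the zone around the central vein and of Wnt signalling did not move together (3 of 15 higher, 6 lower, 3 lower with total counts). Rhbg, an ammonium transporter, measured 40.3, 39.4, 39.5 and 34.3 CPM in the nodules and 2.88, 1.44, 1.71 and 1.80 CPM in no DEN liver (log2 fold change 4.29, SE 0.20, edgeR adjusted p = 2.93e-06). Glul, the glutamine synthetase of pericentral hepatocytes, measured 202, 229, 234 and 259 CPM against 421, 326, 381 and 285 CPM (log2 fold change -0.61, SE 0.14, edgeR adjusted p = 0.00484; not called with total counts), and Oat fell by 2.33. Axin2, a Wnt target, was not called (log2 fold change -0.31, SE 0.14, edgeR adjusted p = 0.084; 0.26 with total counts). The number of lower genes in this group ran from 4 without H22 to 9 without F06.

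Markers of cells other than hepatocytes were higher in several groups. For cholangiocytes and progenitors 12 of 13 were higher and none lower (median 2.71), and the summed level of the list was 529 to 646 CPM in no DEN liver, 730.2 to 1117 in NT liver and 1006 to 1422 in the nodules. Krt19, a keratin of bile ducts, measured 16.9, 24.5, 43.3 and 61.8 CPM in the nodules and 0.912, 1.31, 1.89 and 1.97 CPM in no DEN liver (log2 fold change 4.58, SE 0.46, edgeR adjusted p = 7.75e-05). Epcam, an adhesion molecule of ductal and progenitor cells, rose from 17.1 ± 2.89 to 44.6 ± 6.57 CPM (log2 fold change 1.39, SE 0.15, edgeR adjusted p = 9.03e-05), and Sox9, a transcription factor of ducts, from 0.645 ± 0.314 to 8.46 ± 3.004 CPM (log2 fold change 3.70, SE 0.37, edgeR adjusted p = 7.76e-05). Krt19 and Epcam, which define the list, were at 0 in no library. The list also holds Krt8 and Krt18, keratins that hepatocytes express as well, so its count and sum do not measure duct cells alone. In no DEN liver Krt19, Epcam and Sox9 were a small part of its summed level. From which cells of the nodule these transcripts came was not tested.

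Of 26 genes of the matrix and of stellate cell activation 20 were higher and 2, Fn1 and Mmp14, were lower (median 1.45; 1 lower with total counts). The summed level of the list ran the other way, with 3441 to 3740.1 CPM in no DEN liver, 2698 to 3429 in NT liver and 2003 to 2939 in the nodules. Fn1, the gene of fibronectin, which hepatocytes secrete, measured 1043, 1341, 1143 and 1380.0 CPM in the nodules and 2955, 2679, 2659.6 and 2874 CPM in no DEN liver (log2 fold change -1.19, SE 0.11, edgeR adjusted p = 5.6e-05) and made up most of that sum in no DEN liver. The call of Mmp14, a membrane-bound matrix protease (log2 fold change -0.67, edgeR adjusted p = 0.0477), was lost without any 1 rat other than H21 (edgeR adjusted p up to 0.115, and with F06 left out a log2 fold change of -0.42). It was also lost with RLE size factors, with no filter on low genes, with each nodule as its own value and with nodule 1 of each rat alone (edgeR adjusted p of 0.055, 0.0596, 0.0684 and 0.165). Col1a1, a chain of type I collagen, measured 44.96, 65.2, 57.6 and 31.4 CPM in the nodules and 8.97, 9.41, 8.38 and 5.55 CPM in no DEN liver (log2 fold change 2.63, SE 0.25, edgeR adjusted p = 6.04e-05). Acta2, the smooth muscle actin of activated stellate cells, rose from 3.48 ± 1.36 to 12.4 ± 3.07 CPM (log2 fold change 1.83, SE 0.28, edgeR adjusted p = 0.000664). Thy1, a surface marker of fibroblasts, rose by 4.46 and Lama5, a laminin chain, by 3.92. Of 8 markers of quiescent stellate cells (summed levels 338 to 385 CPM in no DEN liver, 265 to 311 in NT liver and 231 to 302 in the nodules) 1 was higher (Des, 1.17), 1 was lower (Ecm1, -0.71; not called with total counts) and 6 were not called, including Lrat, which stores retinol (log2 fold change 0.30, SE 0.21, edgeR adjusted p = 0.253).

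Among endothelial markers 10 of 13 were higher (median 1.17), with summed levels of 219 to 314 CPM in no DEN liver, 369.6 to 449.8 in NT liver and 364 to 466 in the nodules. Cdh5, the cadherin of endothelium, measured 7.72, 19.5, 16.9 and 21.7 CPM in the nodules and 5.54, 4.68, 6.56 and 7.79 CPM in no DEN liver (log2 fold change 1.42, SE 0.30, edgeR adjusted p = 0.00423), and F06 alone lay within the untreated range. Pecam1 rose by 0.62, a rise under the threshold of 0.5 without F06 (0.48). Cd34, a marker of capillarised vessels, rose by 1.93, and Emcn and Vwf by 1.62 and 1.34. Among macrophage markers 7 of 14 were higher (median 0.56; summed levels 658 to 915 CPM in no DEN liver, 749.7 to 1611 in NT liver and 798 to 1499 in the nodules). Cd68 rose by 0.83, Gpnmb by 1.68 and Trem2, a receptor of lipid-associated macrophages, from 0.0661 ± 0.0409 to 1.11 ± 0.822 CPM. Clec4f, the defining marker of resident Kupffer cells, was not called (log2 fold change -0.25, SE 0.19, edgeR adjusted p = 0.301; 0.30 with total counts). Cdh5, Pecam1, Cd68 and Clec4f were at 0 in no library.

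T and NK cell markers stayed low in both tissues. Cd3e, a chain of the T cell receptor complex, measured 0.526, 0.609, 0.389 and 0.407 CPM in the nodules and 0.292, 0.123, 0.146 and 0.170 CPM in no DEN liver (log2 fold change 1.38, SE 0.33, edgeR adjusted p = 0.00771), and the summed level of the list was 20.9 to 26.9 CPM in no DEN liver, 28.7 to 46.5 in NT liver and 27.1 to 42.1 in the nodules. In this list 6 of 12 genes were higher, between 4 without H12 and 7 without H23. Cd8a was not called (log2 fold change 0.56, SE 0.31, edgeR adjusted p = 0.156), and neither Cd3e nor Cd8a was at 0 in any library. Of 4 B cell markers none was called. Cd79b, a chain of the B cell receptor complex, was at 0 in no library, and the summed level was 5.81 to 8.17 CPM in no DEN liver, 7.44 to 14.7 in NT liver and 7.04 to 16.8 in the nodules. The mast cell proteases Mcpt2 and Cpa3 measured 3.54, 4.99, 2.35 and 1.34 and 1.93, 3.26, 1.52 and 0.841 CPM in the nodules and at most 0.170 CPM of either in no DEN liver (log2 fold change 4.89, SE 0.62, edgeR adjusted p = 0.000244 for Mcpt2; log2 fold change 4.48 for Cpa3). S100a9, a neutrophil protein, measured 17.1, 2.48, 1.61 and 2.13 CPM against 0.729, 1.03, 1.38 and 1.94 CPM. Its call (log2 fold change 2.18, SE 0.81, edgeR adjusted p = 0.0486) was lost without any 1 untreated rat (edgeR adjusted p up to 0.119), and S100a8 was not called (log2 fold change 2.32, SE 0.88, edgeR adjusted p = 0.0523). Without F06 the log2 fold change was 0.72 for S100a9 and 0.78 for S100a8, and both were called (edgeR adjusted p = 0.0415 for S100a8). S100a8 was also called without H21, H22 or H23 (edgeR adjusted p of 0.0431, 0.038 and 0.0339). In the neutrophil and mast cell list the number of higher genes ran from 2 without H09 to 5 without H23, with 3 of 5 in all rats, and the summed level was 2.09 to 4.89 CPM in no DEN liver, 7.37 to 21.4 in NT liver and 4.91 to 46.5 in the nodules. S100a9 and S100a8 were at 0 in no library.

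Of 10 genes of class II presentation and antigen processing 7 were higher (median 1.49), 6 of them of the class II pathway. Of the class I pathway Psmb9, a subunit of the immunoproteasome, was higher (log2 fold change 0.86), and B2m, Tap1 and Psmb8 were not called. Cd74, the invariant chain, measured 715, 466, 378 and 245 CPM in the nodules and 97.9, 121, 131 and 137 CPM in no DEN liver (log2 fold change 1.89, SE 0.29, edgeR adjusted p = 0.000711), highest in F06 and lowest in H23. The class II genes RT1-Da and RT1-Ba rose by 2.09 and 2.07, with the uncertainty of a multigene family. Interferon-stimulated genes were mixed, with 4 of 13 higher, 2 lower (1 with total counts) and 7 not called. Gbp2 rose by 1.55 and Mx1 by 0.98, Oas1a fell by 1.09, and Isg15 was not called (log2 fold change 0.53, SE 0.36, edgeR adjusted p = 0.258; log2 fold change 0.0014 without F06). Without F06, 4 of these genes were lower. The part of these cell markers in the falls of hepatocyte genes was not tested.

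Genes of the cell surface and cytoskeleton that injured or duct-like epithelium is known to raise were higher in 16 of 18 cases (median 2.23), with Actb and Tuba1c not called. Without F06 Tuba1c, an alpha-tubulin, had a log2 fold change of 0.70 in place of 0.33 and was called (edgeR adjusted p = 0.000395), which made 17 higher genes. Tubb6, a beta-tubulin, measured 45.7, 96.8, 131 and 110.4 CPM in the nodules and 2.11, 2.18, 2.95 and 2.59 CPM in no DEN liver (log2 fold change 5.28, SE 0.34, edgeR adjusted p = 9.26e-06). S100a10, the partner of annexin A2, varied little within either group, with 43.2, 42.7, 51.4 and 43.8 CPM in the nodules and 4.12, 4.15, 4.81 and 4.42 CPM in no DEN liver (log2 fold change 3.37, SE 0.10, edgeR adjusted p = 8.34e-07). Anxa2 itself rose from 8.26 ± 1.19 to 122 ± 33.4 CPM (log2 fold change 3.89, SE 0.23, edgeR adjusted p = 7.1e-06) and Tmsb10, which binds free actin, from 28.6 ± 3.42 to 234 ± 59.4 CPM (log2 fold change 3.03, SE 0.18, edgeR adjusted p = 7.38e-06).

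Of 12 ABC efflux transporters of liver 6 were higher, 1 was lower and 5 were not called. Abcc3, a basolateral exporter of conjugates, measured 74.5, 115, 139 and 107 CPM in the nodules and 1.53, 2.46, 2.37 and 2.79 CPM in no DEN liver (log2 fold change 5.57, SE 0.25, edgeR adjusted p = 2.93e-06). Abcb1b, a P-glycoprotein able to export many drugs, measured 83.7, 198, 149.6 and 161 CPM against 5.62, 3.62, 3.46 and 5.75 CPM (log2 fold change 5.001, SE 0.31, edgeR adjusted p = 8.29e-06), and its close copy Abcb1a rose by 0.96. Abcb11, the bile salt export pump, was lower (log2 fold change -0.93), and 0 members were lower with total counts.

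Among 18 targets of p53 8 were higher and 3 lower (Sesn1, Sesn2 and Ei24; 0 with total counts). Cdkn1a, the p21 inhibitor of cyclin-dependent kinases, measured 177, 120.3, 129 and 145 CPM in the nodules and 32.2, 42.2, 38.4 and 39.5 CPM in no DEN liver (log2 fold change 1.90, SE 0.14, edgeR adjusted p = 1.71e-05). Mdm2, the ubiquitin ligase that degrades p53, rose from 18.4 ± 1.70 to 59.6 ± 13.5 CPM (log2 fold change 1.69, SE 0.16, edgeR adjusted p = 5.04e-05). Both genes were highest in rat F06. Fas rose by 1.66, Gdf15 by 1.58 and Btg2 by 1.34.

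Of 12 immediate early genes 9 were higher and none lower (median 1.64). Myc measured 25.7, 41.3, 65.4 and 43.7 CPM in the nodules and 3.54, 5.01, 5.39 and 4.39 CPM in no DEN liver (log2 fold change 3.26, SE 0.28, edgeR adjusted p = 3.67e-05). Fos, at 1.56, 1.02, 2.06 and 0.933 CPM against 0.510, 0.246, 0.255 and 0.102 CPM, and Jun, at 65.3, 60.2, 83.6 and 52.1 CPM against 17.4, 47.5, 30.7 and 29.000 CPM, subunits of AP-1, were both called (log2 fold change 2.32, SE 0.45, edgeR adjusted p = 0.00247 for Fos; log2 fold change 1.07, SE 0.27, edgeR adjusted p = 0.0102 for Jun). Of 15 genes of ER stress and the ATF4 response 4 were higher and 2 lower (Herpud1 and Sesn2; 0 with total counts). Phgdh, the first enzyme of serine synthesis, measured 11.6, 18.1, 19.8 and 13.7 CPM against 0.620, 0.904, 0.583 and 0.919 CPM (log2 fold change 4.38, SE 0.24, edgeR adjusted p = 5.2e-06), and Psat1, the next enzyme, rose by 2.90. Asns, which makes asparagine, rose by 1.64, and Ddit3, the CHOP factor of ER stress, was not called (log2 fold change 0.19, SE 0.29, edgeR adjusted p = 0.618; -0.21 without F06).

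Of 8 oncofetal and imprinted genes 5 were higher and 1, Peg3, was lower (0 with total counts). The call of Peg3 (log2 fold change -0.58, edgeR adjusted p = 0.0358) was lost without any 1 rat other than F06 (edgeR adjusted p from 0.0534 to 0.0939) and with nodule 1 of each rat alone (edgeR adjusted p = 0.179). Gpc3 (glypican-3), a proteoglycan of fetal liver, measured 3.44, 7.24, 6.999 and 3.28 CPM in the nodules and 0.255, 0.411, 0.546 and 0.306 CPM in no DEN liver (log2 fold change 3.78, SE 0.39, edgeR adjusted p = 8.42e-05), and the imprinted RNA H19 20.3, 40.4, 35.1 and 29.1 CPM against 3.06, 2.51, 1.86 and 0.919 CPM (log2 fold change 3.91, SE 0.35, edgeR adjusted p = 4.46e-05). Afp, the alpha-fetoprotein of fetal liver, measured 34.8, 27.3, 23.8 and 22.3 CPM against 31.6, 34.6, 30.7 and 29.4 CPM and was not called (log2 fold change -0.22, SE 0.14, edgeR adjusted p = 0.208; 0.34 with total counts). The imprinted RGD1566401 (Meg3) measured 1.86, 1.92, 0.818 and 0.315 CPM against 1 count in all of no DEN liver, a ratio of 133-fold (95% counting interval 23.9 to 5267).

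Of 10 acute-phase genes 5 were lower (2 with total counts) and 1 was higher. Crp measured 878, 1714, 1675 and 2206 CPM in the nodules and 5643, 5095, 5199.8 and 5224 CPM in no DEN liver (log2 fold change -1.71, SE 0.24, edgeR adjusted p = 0.000426), and Lbp, which binds lipopolysaccharide, 111, 134, 146 and 108 CPM against 42.4, 36.3, 50.9 and 43.1 CPM (log2 fold change 1.53, SE 0.14, edgeR adjusted p = 4.29e-05). Of 14 clock genes 5 were lower (0 with total counts), between 3 and 5 when 1 rat was left out, the lowest without H22, and 1 was higher. Arntl, the activating clock factor, fell by 0.70, Per3, a repressor of the clock, rose by 2.19, and Dbp, an output of the clock, was not called (log2 fold change 1.40, SE 0.57, edgeR adjusted p = 0.0668). Dbp measured 17.99 CPM in rat F06 and at most 3.88 CPM in the other treated rats. Without F06 its log2 fold change was 0.47, and it was called without H22 or H23 (edgeR adjusted p of 0.0497 and 0.0441). The hour of sampling was not used here.

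Against NT liver of the same rats, 0 of 11466 genes passed the threshold (0% called), both without and with the rat as a block in the fit (edgeR quasi-likelihood test; 1348 and 2518 genes at an unadjusted p of at most 0.05; DESeq2 called 24). Without F06 the count stayed 0 in the fit without the block. With the rat as a block and without F06, an alternative chosen after seeing the data, 300 of 11571 genes (2.59%) were called, 119 higher (1.03%) and 181 lower (1.56%) in the nodules of the 3 remaining rats. Without any other rat the count was 0, and without nodule 1 of F06 alone it was 0 as well. Of the 300 genes, 298 had the same sign in the blocked fit of all 4 rats. That fit holds the same 3 rats, so the shared sign is not separate support. The median log2 fold change of those called lower was -0.62 in 3 rats and -0.92 in 4 rats, and that of those called higher was 0.68 and 0.73.

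Slc6a6, the taurine transporter, had the smallest adjusted p without F06. In NT liver of H21, H22 and H23 it measured 39.9, 34.3 and 42.2 CPM, and in their nodules 20.6 and 17.6, 18.1 and 15.96 and then 18.6 and 24.7 CPM (log2 fold change -1.02, SE 0.06, edgeR adjusted p = 2.56e-06). In rat F06 it measured 35.3 CPM in NT liver and 2.31 and 5.79 CPM in the nodules, a larger fall than in the other rats. Slc7a2, a carrier of cationic amino acids, measured 70.7, 65.4 and 104 CPM in NT liver and in the nodules 51.02 and 28.5, 31.4 and 25.3 and then 45.5 and 53.5 CPM (log2 fold change -1.03, SE 0.07, edgeR adjusted p = 7.53e-05). Ptk6, the potassium channel gene Kcnj15 and the phosphatase gene Inpp4b were the other 3 of the 5 largest falls, with log2 fold changes of -0.97, -1.15 and -0.96. Of the 5 largest rises the first was that of Cpa1, a carboxypeptidase known from the pancreas, with 0.561, 2.16 and 0.293 CPM in NT liver and 3.71, 5.67 and 2.95 CPM in the nodules of H21, H22 and H23, scaled within these 3 rats (log2 fold change 2.18, SE 0.34, edgeR adjusted p = 0.0115). Cpa1 did not pass the filter on low counts in the comparison with no DEN liver. Klhl14, Havcr1, known as a marker of injured kidney tubules, and Serpinb1a, a protease inhibitor, rose by 1.37, 1.35 and 1.31, and Nefl was the fifth (log2 fold change 1.24, SE 0.14, edgeR adjusted p = 0.00976).

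By group, 1 of 12 focus enzymes was called higher than in NT liver without F06. It was Gstp1, with 2029.7, 2124 and 1339 CPM in NT liver and in the nodules 2806 and 2411, 3804 and 3189.9 and then 2836 and 1721 CPM (log2 fold change 0.62, SE 0.08, edgeR adjusted p = 0.00339). Of 18 hepatocyte transcription factors 6 were lower, among them Esr1, Onecut1, Ppara, Prox1 and Rxra, and of 8 male-biased genes 3 were (Cyp3a2, Cyp4a2 and Slco1a1). Of 18 genes of injured epithelium 2 were higher (S100a11 and Tubb6), as were 2 of 10 glycolytic genes of other tissues (Hk1 and Pfkp). None of the 21 mitotic and 20 S-phase genes was called without F06. Their median log2 fold changes were 0.19 and 0.079 in these 3 rats and 0.13 and -0.01 in the blocked fit of 4 rats. The comparison with NT liver and that with no DEN liver share the nodules.

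**Figure D3:**
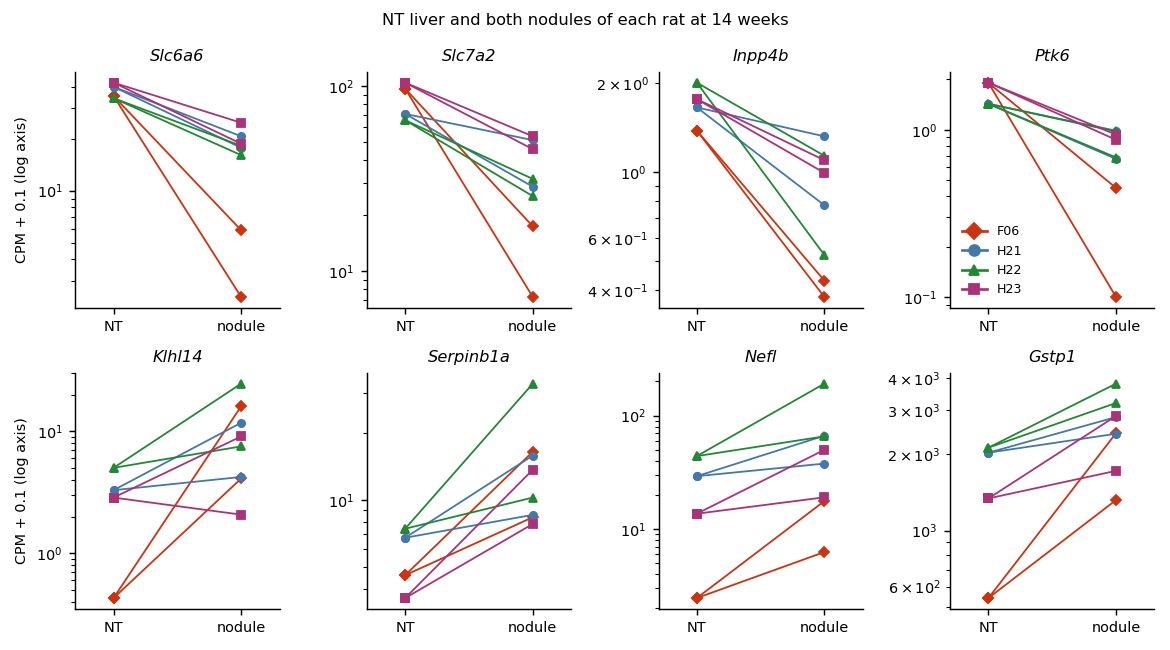
CPM + 0.1 on a log axis in NT liver and in both nodules of each rat at 14 weeks for 8 genes, with a line from the NT value of a rat to each of its nodules. Slc6a6 and Slc7a2 fell in all 8 nodules, most in rat F06, and Gstp1 rose in all 8.

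The difference between nodules and no DEN liver of the same week was set against that at 20 weeks, 6 weeks after the last injection, by the interaction of tissue and week. It passed an adjusted p of 0.05 in 10 of 11607 genes (0.0862%), 9 with a smaller or more negative difference at 20 weeks and 1 with a less negative one. Aox3 measured 0.344 ± 0.254 CPM in nodules at 14 weeks and 12.4 ± 7.67 CPM at 20 weeks, against 118 ± 28.7 and 120.4 ± 19.5 CPM in no DEN liver (SD, n = 4 each, scaled over these 4 groups). Its log2 fold change (± SE) was -8.37 ± 0.51 at 14 weeks and -3.28 ± 0.38 at 20 weeks (difference 5.09, SE 0.58, edgeR adjusted p = 0.00115). Week, age and time after the last injection cannot be told apart in this design.

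Of the other 9 genes, 3 were in the list of p53 targets. Phlda3 and Ccng1 among them, and Jam3 and Axin2 further on, were named after their values were seen. Cdkn1a had a log2 fold change of 1.91 ± 0.18 at 14 weeks and 0.17 ± 0.17 at 20 weeks (difference -1.73, SE 0.24, edgeR adjusted p = 0.00937). Phlda3, which blocks Akt at the membrane, had 0.39 ± 0.08 and -0.84 ± 0.08 (difference -1.23, SE 0.11, edgeR adjusted p = 6.09e-05). Ccng1 (cyclin G1) had 1.01 ± 0.12 and 0.01 ± 0.12 (difference -1.0, SE 0.16, edgeR adjusted p = 0.0206), a difference that lost its call in 8 of 16 fits without 1 rat. The 15 remaining p53 targets tested were not called.

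Lama5 had log2 fold changes of 3.92 ± 0.18 and 2.25 ± 0.18 (difference -1.67, SE 0.25, edgeR adjusted p = 0.0105), and Axin2 -0.31 ± 0.11 and -1.39 ± 0.12 (difference -1.07, SE 0.16, edgeR adjusted p = 0.0105). Jam3, a junction protein, had 0.95 ± 0.11 and -0.08 ± 0.11 (difference -1.02, SE 0.15, edgeR adjusted p = 0.0105). For these 3 genes and for Aox3, Cdkn1a and Phlda3 the call held in all 16 fits without 1 rat. Abcb1b had 4.996 ± 0.36 and 2.26 ± 0.32 (difference -2.74, SE 0.45, edgeR adjusted p = 0.0206), and its call was lost in 8 of the 16 fits. Mybl2, a factor of the cell cycle, had 3.44 ± 0.34 and 0.55 ± 0.32 (difference -2.88, SE 0.47, edgeR adjusted p = 0.0206), lost in 7, and the related Mybl1 had 3.34 ± 0.25 and 1.41 ± 0.24 (difference -1.92, SE 0.34, edgeR adjusted p = 0.0446), lost in 14. The edgeR adjusted p without 1 rat reached 0.0847, 0.0847 and 0.176 in these 3 genes. None of the 12 focus enzymes, 21 mitotic genes, 8 male-biased genes or 25 cytochromes P450 was called, which does not show that their differences were alike at both weeks.

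**Figure D4:**
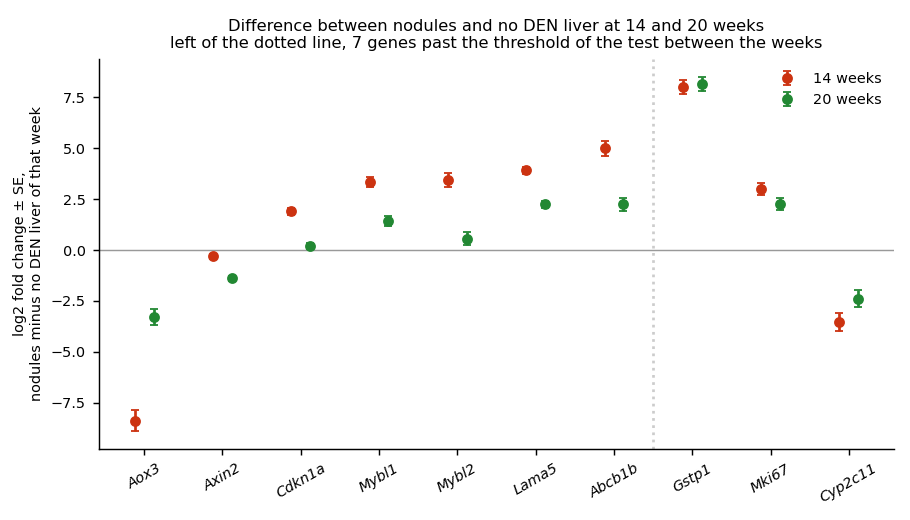
Log2 fold change with its SE, nodules minus no DEN liver of the same week, at 14 weeks (red) and 20 weeks (green) for 10 genes. The 7 genes left of the dotted line passed the test between the weeks, and Gstp1, Mki67 and Cyp2c11 on the right did not.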

How the data were processed

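RNA of 40 libraries had been sequenced as read pairs. Per the labels, the authors aligned reads with STAR 2.7.1a to rn6 and counted pairs per gene with HTSeq, and they deposited raw counts for each library. Lines that name no gene were removed before any total was taken. Both nodules of each rat entered as 1 sum. Tests were fitted in edgeR 4.0.16 (R 4.3.3) with filterByExpr, TMM scaling and the quasi-likelihood test, with 4 rats per group. Genes were called where the adjusted p was not above 0.05 and the absolute log2 fold change was 0.5 or more, without the limit on fold change in the test between weeks. The p-values against no DEN liver and between weeks rest on the spread between rats of a group. With the rat as a block, those against NT liver rest on the spread of differences within rats. The fit without the block took nodules and NT liver of a rat as independent. DESeq2 1.42.0 was an alternative. CPM are counts relative to the TMM-scaled library size, as edgeR gives them. The steps were tested on simulated data.

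Named genes were the 12 largest rises and falls among called genes whose groups did not overlap and whose mean reached 1 CPM, the defining members and up to 4 called members with the largest change of each list, and the 5 largest rises and falls of each side comparison. Further list members were named after their values were seen. The comparison, lists and members were chosen with earlier results of these data known. Nodules and NT liver of a rat come from the same animal, so the rat number pairs them, and their deviations from the group means correlated at 0.367 to 0.538 in the 4 rats. Total pairs ranged from 20528515 to 35326660 in the 12 libraries. Promoters came from RefSeq on GRCr8, matched by symbol, while the build of the counts is rn6. No 2 libraries agreed within sampling noise. Alternatives were other scalings, no filter, other thresholds, either nodule alone, and leaving out each rat. Some list members are counted but not reported here by name.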

Additional observations from a re-analysis of the deposited data

Results flagged for a closer look

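Among 378 groups of 4 values, for 189 genes named here in nodules and in no DEN liver, 45 (11.9%) held a rat whose value stood apart from the other 3 by more than Dixon's criterion allows at the 95% level. That level gives about 1 in 20 for independent, normally distributed values. CPM near 0 and genes of the same rats do not meet this, so the share was not tested against chance. In the nodules, rat F06 was the highest rat for B2m 2726, Cd68 72.1, Cpt1a 137, Cyp2e1 2021, Dbp 17.99, Ddit3 17.5, Emcn 8.75, Herpud1 101, Igfbp2 32.2, Isg15 34.02, Pecam1 25.3, Peg3 36.98, Per3 4.33, S100a8 7.29 and S100a9 17.1 CPM, and the lowest for Ppara 2.53, Ptk6 0.175, Rrm2 5.65 and Tuba1c 1.33 CPM. The values of the other treated rats that stood apart were, in CPM, Abcb11 449.8 in H23 (highest), Ccng1 86.4 in H23 (highest), Osgin1 533 in H22 (highest), Pkm 10.2 in H21 (highest), Rhbg 34.3 in H23 (lowest), S100a10 51.4 in H22 (highest), Scd1 3664 in H23 (highest), Serpinb1a 18.8 in H22 (highest), Sqle 39.7 in H23 (highest). In no DEN liver, rat H09 was the highest for Akr1b10 0.0729, Cyp1a2 629, Cyp2a1 419.5, Cyp8b1 697, Kcnj15 1.93, Nqo1 11.9 and Sesn1 28.4 CPM. The other untreated rats that stood apart gave, in CPM, Aldh3a1 0 in H10 (lowest), Ddit3 9.60 in H12 (highest), Dnaaf1 0.0729 in H11 (highest), Emcn 3.10 in H12 (highest), Nefl 0.0364 in H11 (highest), Onecut1 13.97 in H10 (highest), Pfkp 2.51 in H11 (highest), Psat1 3.81 in H12 (highest), RGD1566401 0.0364 in H11 (highest), Slc7a11 0.219 in H11 (highest). Several of these, such as Nefl, Dnaaf1, Akr1b10, Aldh3a1, Slc7a11 and RGD1566401 in no DEN liver, are values of 6 counts or fewer per library. The part of rat F06's lower depth or of its letter in these values was not tested.

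The difference between nodules and no DEN liver differed between 14 and 20 weeks by the edgeR interaction test in 10 genes, given here as the log2 fold change at 20 weeks minus that at 14 weeks. It was -2.74 for Abcb1b, 5.09 for Aox3, -1.07 for Axin2, -1.0 for Ccng1, -1.73 for Cdkn1a, -1.02 for Jam3, -1.67 for Lama5, -1.92 for Mybl1, -2.88 for Mybl2 and -1.23 for Phlda3.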

How the results depend on the processing

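Of the 4425 genes that differed between nodules and no DEN liver, the count stayed within 1.5 times of that value with DESeq2, RLE size factors, no filter on low genes, all 8 groups in a single fit, each nodule as its own value, either nodule alone and nodule 1 of F06 left out (3943 to 4924). Without 1 rat it ran from 4006 to 4686, with 2464 to 2916 higher and 1415 to 1770 lower. With total counts only, 5921 were higher and 422 lower, and at 2-fold and an adjusted p of at most 0.01, 2117 differed (1609 higher, 508 lower). With total counts only, the log2 fold change changed sign for Afp (0.34), Axin2 (0.26), B2m (0.26), Cd79b (0.52), Clec4f (0.30), Inpp4b (0.48), Pfkl (0.27) and Psmb8 (0.50), none of them called with TMM scaling. Leaving out 1 rat changed the sign, within the range given, for Cyp7a1 (-0.33 to 0.23), Ddit3 (-0.21 to 0.33), Inpp4b (-0.26 to 0.18), Tap1 (-0.073 to 0.084), Cd79b (-0.38 to 0.14), Kcnj15 (-0.74 to 1.16) and Psmb8 (-0.16 to 0.016). With nodule 1 alone it changed sign for Inpp4b (0.24), Kcnj15 (-0.18) and Tap1 (-0.080), with nodule 2 alone for Cd79b (0.17) and Psmb8 (0.059), with each nodule as its own value for Cd79b (0.0081) and without nodule 1 of F06 for Cyp7a1 (-0.0047). The cause of these changes was not tested. The comparison of nodules with NT liver gave 0 genes with the replicate block, as without it, 24 with DESeq2 (8 higher, 16 lower) and, with the block and without rat F06, 300 (119 higher, 181 lower). With the block and without H21, H22 or H23 it gave 0, and the fits without the block and without 1 rat gave 0 in each of 4 fits. The test between weeks gave 10 genes, 29 with DESeq2 (5 higher, 24 lower), 6 to 15 without 1 rat (1 to 4 higher, 5 to 11 lower) and 8 without both rats numbered F. The lowest count came without F03, H25, H11, H14 or H16, and the highest without H28. Depth limits the genes named with 0 to 3 counts in no DEN liver to lower bounds or wide counting intervals.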
